A study of Homo sapiens with 24 samples.

Results

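The change between 12 h and 24 h of induction was examined in P3HR1 cells that express miR-28, with 6 arrays at each time. The arrays were chosen by the vector and the hours given in their titles, and they make up 12 of the 24 arrays of the series. P3HR1 is a human B-cell line from a Burkitt lymphoma and is infected with Epstein-Barr virus. All 12 arrays hold cells with a stably introduced pRTS1 vector, from which doxycycline induces green fluorescent protein (GFP) together with the miR-28 precursor. The other 12 arrays, of control cells whose vector makes GFP alone, serve here only to set the change with time beside that of cells without the precursor. Each vector is represented by 2 bulk populations, A and B, which are mixed pools and not single clones, and each population was induced 3 times for 12 h and 3 times for 24 h. For the doxycycline dose the treatment label has 0.1 ug/ml and the source label 1 ug/ml, alike for every array. Every array is of induced cells, so hours in doxycycline and hours in culture cannot be told apart.

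A microRNA is a short RNA that guides an Argonaute protein to messenger RNAs, mainly through its seed, and lowers their stability or translation. The miR-28 precursor yields a 5p and a 3p strand and lies within an intron of LPP, its host gene. Proliferating cells raise genes for DNA replication around the passage from G1 into S phase, under E2F factors, and raise genes for mitosis in G2 and M phase. NF-kB is a family of transcription factors that is active in many virus-infected B cells and induces its own inhibitors, among them NFKBIA and TNFAIP3. The mature strand of miR-28 that RefSeq lists (GRCh38.p14) is shown because it is one of the strands that the induced precursor yields, with its seed, bases 2 to 8, in capitals. It lies at chr3:188688834-188688855 on the plus strand.
hsa-miR-28-3p: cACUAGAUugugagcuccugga

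Array values are probe-set intensities on a linear scale. Changes are 24 h minus 12 h on the log2(intensity + 8) scale, with standard errors (SE) from limma over 6 against 6 arrays, and a gene was called at a Benjamini-Hochberg adjusted p under 0.05 over all 11380 genes tested. That scale understates the change of dim genes. The replicates are separate inductions of 2 populations, and the p-values therefore reflect how inductions vary rather than how independently made populations vary. The median intensity per array was 86.84 ± 4.25 at 12 h and 80.71 ± 5.12 at 24 h (mean ± SD, n = 6), a difference with an exact two-sided permutation p of 0.0498 (0.149 after adjustment over 3 quality measures). Its part in the results was not tested. Counts of called genes with the arrays centred on their medians are given below for several, but not all, of the lists that centring changed. Over the 12 arrays, the median B-cell marker had an intensity of 8340, the median T-cell marker 62.7, NK-cell marker 53.7, myeloid marker 46.1 and fibroblast or epithelial marker 89, although LCK and VIM, at 4912 and 8868, were bright. CD79B and CD22 were called among the B-cell markers. Of the 31 markers of those 4 other classes 10 were bright enough to be tested, and none of these was called. In a bulk sample, a change in the share of cells in a state and a change in RNA per cell cannot be told apart.

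Between 12 h and 24 h, miR-28 cells raised 19 of 34 measured genes of G1/S and DNA replication and 3 of 9 of fatty acid synthesis. They lowered 11 of 31 genes of G2/M and mitosis, 5 of 20 NF-kB targets, among them the inhibitor genes NFKBIA and TNFAIP3, and 4 of 13 genes linked to growth arrest. In all, 302 genes rose (2.65% of those tested) and 228 fell (2.0%), together 530 genes or 4.66%. The changes were small: the median was 0.43 among genes that rose and -0.39 among those that fell. At least a 1.5-fold change was reached by 66 and 33 of them, and at least a 2-fold change by 7 and 6. All 530 moved in the same direction in populations A and B, as did 63.4% of all genes tested; since the calls were made on both populations together, this is a description. The 6 arrays of each time did not overlap for 159 of the genes that rose and for 127 of those that fell, where 1.96% and 1.42% of all genes tested had groups apart in those directions. When the arrays were centred on their medians, the median change of all genes went from 0.00 to 0.10, and 529 genes were higher and 57 lower. The share of higher calls thereby went from 57% to 90.3%, so the balance between rises and falls rests on the scaling. With quantile normalization 299 genes were higher and 263 lower, a share of 53.2%. Of the 530 genes 359 were also called after centring and 498 with quantile normalization. The counts also rest on single arrays and on the control arrays that share the estimate of the spread: 193 genes rose without array B1 at 12 h, 196 without B3 at 24 h, 150 fell without A2 at 12 h, and 111 rose and 75 fell in a fit of the miR-28 arrays alone.

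**Figure D1:**
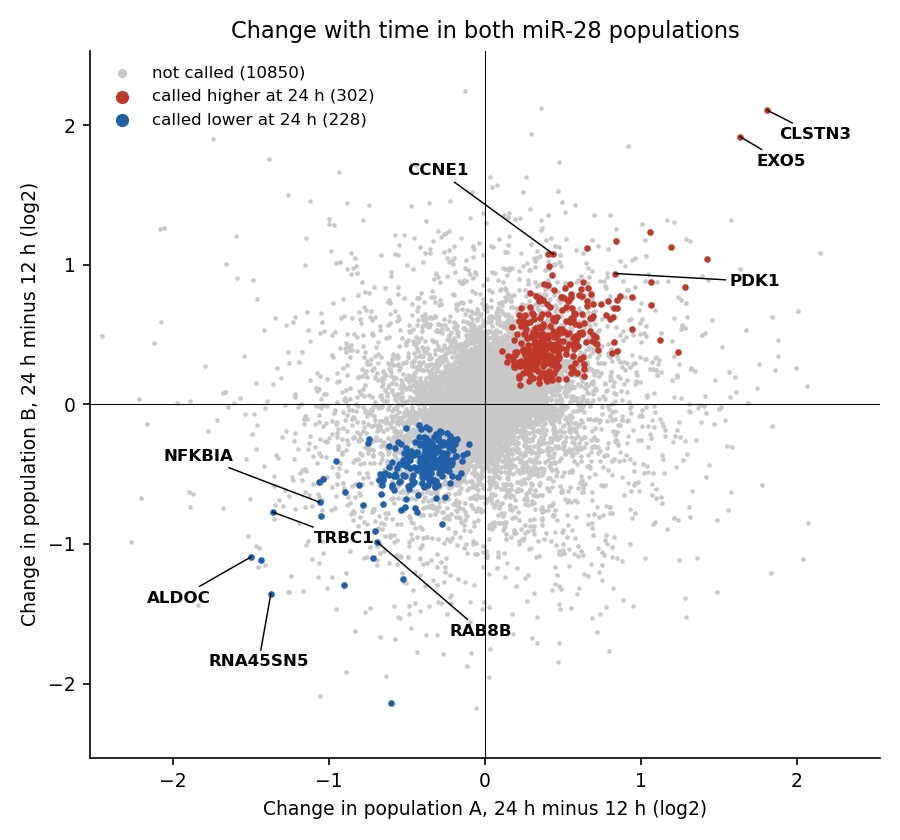
Change of each of the 11380 genes between 12 h and 24 h in population A (x axis) and population B (y axis) of miR-28 cells, in log2 units. Red points are the 302 genes called higher, blue points the 228 called lower and grey points the genes not called; all called genes, which were called on both populations together, lie in the quadrants where both moved the same way, as do 63.4% of all genes.

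Of 34 measured genes of the G1/S and replication list, 19 rose and none fell. The median change of the list was 0.36, against 0.00 over all genes tested, and 32 members were above 0. CCNE1, which encodes cyclin E1, the activator of CDK2 at S-phase entry, had the largest change of the list. Its intensity was 453.3 to 671.6 at 12 h (median 520.7) and 689.9 to 1149 at 24 h (median 967). No array at 12 h reached the lowest at 24 h, and the rise was 0.76 ± 0.12 (adjusted p 0.00111). RRM2, the regulated subunit of ribonucleotide reductase, which makes the building blocks of DNA, was 7082 to 9352 at 12 h (median 8043) and 10700 to 13160 at 24 h (median 12370). The groups were again apart, with a rise of 0.59 ± 0.08 (adjusted p 0.000126), and a second probe set of RRM2 gave 0.65 ± 0.10. POLE2, a subunit of DNA polymerase epsilon, was 1152 to 1345 at 12 h (median 1253) and 1517 to 2038 at 24 h (median 1783), a rise of 0.51 ± 0.08 (adjusted p 0.000512). GINS2, part of the helicase that unwinds DNA at the fork, was 2664 to 3466 at 12 h (median 3100) and 3538 to 4382 at 24 h (median 4213), and rose by 0.42 ± 0.08 (adjusted p 0.0033). Neither gene had overlapping groups.

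The other 15 members that rose did so by 0.27 (SLBP, the histone mRNA-binding protein) to 0.63 (UHRF1). They included the helicase subunits MCM3 (0.42), MCM4 (0.41), MCM5 (0.45) and MCM7 (0.37) and the licensing factors CDC6 (0.55) and ORC1 (0.35). The replication genes CDC45 (0.42) and MCM10 (0.44) were also among them. Cyclin E2, from CCNE2, rose by 0.63, and the sliding clamp gene PCNA and the flap endonuclease gene FEN1 by 0.38 and 0.39. Of the members that were not called, PRIM1 (-0.12) and GINS3 (-0.05) were below 0, and TK1 stood at 0.01. These names beyond the first 4 were chosen after their values were seen, as were the further list members below. The rise was seen in both populations, with a list median of 0.25 in A and 0.40 in B. Without array B1 at 12 h, 11 members were called, and after median centring 22.

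PCNA and UHRF1, which is needed to copy DNA methylation at the fork, are shown with the 250 bases before their annotated start (RefSeq, GRCh38.p14), because both rose and both hold a match to an E2F site. Their intensities at 12 h were 9043 to 12220 and 1362 to 2516, and at 24 h 12220 to 15830 and 2308 to 3318. The ranges of PCNA met at 12220, and for UHRF1 1 array at 12 h, population A induction 1, was above the lowest at 24 h. The motif searched was TTTCCCGC or TTTGGCGC on either strand, and a match is in capitals. It starts 59 bases before the start of PCNA, at chr20:5126623-5126872 on the minus strand, and 14 bases before that of UHRF1, at chr19:4909251-4909500 on the plus strand.
PCNA promoter: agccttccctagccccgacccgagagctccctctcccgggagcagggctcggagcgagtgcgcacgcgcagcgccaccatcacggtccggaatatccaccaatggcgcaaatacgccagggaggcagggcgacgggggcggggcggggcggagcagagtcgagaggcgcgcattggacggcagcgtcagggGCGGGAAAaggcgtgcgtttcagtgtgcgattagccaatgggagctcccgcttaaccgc
UHRF1 promoter: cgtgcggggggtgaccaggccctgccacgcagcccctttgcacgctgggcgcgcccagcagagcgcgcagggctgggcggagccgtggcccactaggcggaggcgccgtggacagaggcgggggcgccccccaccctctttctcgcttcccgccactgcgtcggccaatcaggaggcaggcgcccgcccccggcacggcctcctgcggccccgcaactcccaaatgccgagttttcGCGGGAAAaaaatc
Such a match was found in 12 of 31 promoters of measured G1/S members (38.7%), in 6 of 16 of those that rose and had a promoter in the table (37.5%), and in 1.93% of all 35116 promoter windows. A match is a run of letters and not a measured binding site.

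Genes of G2/M and mitosis moved the other way. Of 31 measured members 11 fell and none rose, with a list median of -0.24 and 27 members below 0. BIRC5, which encodes survivin, a subunit of the chromosomal passenger complex, was 4141 to 5343 at 12 h (median 4779) and 2929 to 3526 at 24 h (median 3231). All 6 arrays at 24 h were below all 6 at 12 h, and the fall by 0.55 ± 0.09 (adjusted p 0.00142) was shared in direction by 3 other probe sets, at -0.25 to -0.44. CCNB2, cyclin B2, was 6724 to 7637 at 12 h (median 7172) and 5156 to 5966 at 24 h (median 5506), a fall by 0.38 ± 0.07 (adjusted p 0.00454). AURKA, the Aurora A kinase of spindle poles, was 2793 to 3852 at 12 h (median 3349) and 2271 to 2748 at 24 h (median 2523), with a fall by 0.38 ± 0.08 (adjusted p 0.0084). CENPE, the kinetochore motor, was 1164 to 1580 at 12 h (median 1344) and 780.6 to 1196 at 24 h (median 860.6). Its groups overlapped, and it fell by 0.54 ± 0.11 (adjusted p 0.00473).

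The other members that fell were the mitotic kinase genes PLK1 (by 0.49) and NEK2 (by 0.39), the kinesin genes KIF20A (by 0.43) and KIF2C (by 0.32), and CENPF (by 0.46), GTSE1 (by 0.35) and CCNB1 (by 0.27). Several mitotic genes showed almost no difference, such as CDK1 (0.03), CCNA2 (-0.01) and KIF11 (0.06). Of 17 measured genes of the spindle checkpoint and kinetochore, none rose and 1 fell (5.88% called, against 4.66% of all genes). This was CDC20, the activator of the anaphase-promoting complex, at 4075 to 5175 at 12 h (median 4678) and 2572 to 3756 at 24 h (median 3281). Its groups did not overlap, and it fell by 0.53 ± 0.11 (adjusted p 0.00682). TROAP, a spindle-associated protein outside the lists, fell by 0.93 ± 0.14 (adjusted p 0.000805), from a median of 1934 to 1023, while its second probe set gave 0.04 ± 0.13. After median centring the G2/M list had 2 calls and a median of -0.15, and CCNB2 and AURKA were not called (adjusted p 0.0678 and 0.0836). Without 1 array the list had 6 calls (without 12 h A2, 12 h B1 or 24 h B1) or 7 (without 12 h A3, 12 h B2, 24 h A3, 24 h B2 or 24 h B3).

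CCNB2 and PLK1 are shown with the 250 bases before their start, as members that fell and that hold TTTGAA, the core of the cell cycle homology region of many mitotic promoters. In both the match, in capitals, starts 29 bases before the start. The windows lie at chr15:59104896-59105145 and chr16:23678639-23678888, both on the plus strand.
CCNB2 promoter: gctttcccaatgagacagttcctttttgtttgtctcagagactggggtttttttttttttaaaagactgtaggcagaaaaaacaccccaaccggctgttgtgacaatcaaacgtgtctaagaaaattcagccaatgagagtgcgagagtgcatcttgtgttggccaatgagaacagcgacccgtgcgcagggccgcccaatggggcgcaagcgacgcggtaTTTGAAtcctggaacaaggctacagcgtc
PLK1 promoter: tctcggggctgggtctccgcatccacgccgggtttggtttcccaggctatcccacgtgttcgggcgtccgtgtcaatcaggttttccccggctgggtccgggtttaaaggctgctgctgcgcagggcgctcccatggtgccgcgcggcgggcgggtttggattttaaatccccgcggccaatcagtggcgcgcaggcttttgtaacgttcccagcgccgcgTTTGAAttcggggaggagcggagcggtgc
TTTGAA, on either strand, was found in 14 of 26 promoters of measured G2/M members (53.8%), in 3 of the 9 of those that fell and had a promoter in the table (33.3%), and in 13.3% of all windows. CCAAT, on either strand, was found in 19 of the 26 (73.1%) and in 32% of all windows. It was also found in 18 of 31 promoters of measured G1/S members (58.1%) and in 10 of 16 of those that rose (62.5%). CCNB2 holds 4 copies of CCAAT and PLK1 holds 1.

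**Figure D2:**
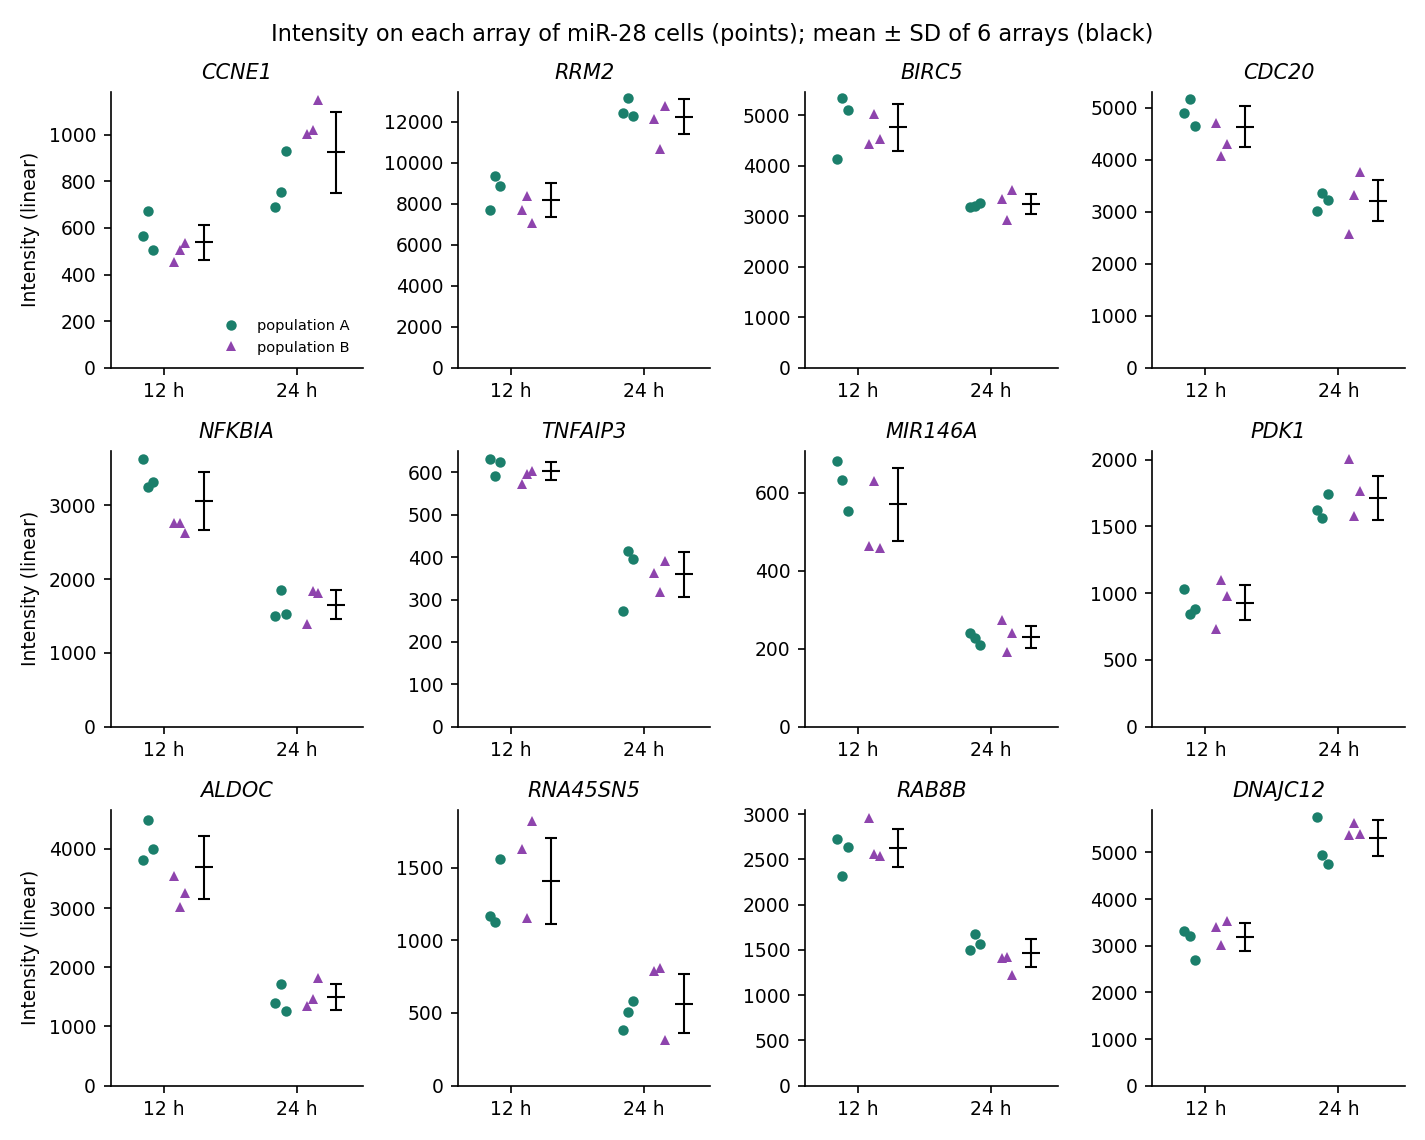
Linear probe-set intensity of 12 genes on each of the 12 miR-28 arrays, with population A as circles and B as triangles, and the mean ± SD of the 6 arrays of each time in black. CCNE1, RRM2, PDK1 and DNAJC12 were higher on all 24 h arrays than on any 12 h array, and the other 8 genes were lower on all 24 h arrays.

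Of 20 measured NF-kB targets 5 were lower at 24 h and none higher, with a list median of -0.32. The median was -0.46 in population A and -0.32 in population B. The populations moved the same way for 12 of the 20 members, where 63.4% of all genes tested did so. NFKBIA, the inhibitor that holds NF-kB in the cytoplasm, was 2627 to 3626 at 12 h (median 3009) and 1393 to 1848 at 24 h (median 1673). Every array at 24 h was below every array at 12 h, and the gene fell by 0.88 ± 0.11 (adjusted p 0.000126). TNFAIP3, the A20 protein, which removes ubiquitin chains from the signalling complex, was 573.5 to 632.5 at 12 h (median 599.4) and 274 to 413.3 at 24 h (median 376.6). The groups were apart, with a fall by 0.75 ± 0.11 (adjusted p 0.0003). CD83, a surface marker of activated B cells, was 1222 to 2005 at 12 h (median 1642) and 797 to 1167 at 24 h (median 973.7), and fell by 0.68 ± 0.13 (adjusted p 0.00479). The subunit gene REL fell by 0.34 ± 0.08 (adjusted p 0.0186), and all of its 4 other probe sets were below 0. The receptor gene CD40 fell by 0.31 (adjusted p 0.0354). After median centring 3 members were called, with a list median of -0.23, and REL was not among them (adjusted p 0.102).

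The cytokine and chemokine receptor genes of the list were dim and variable. CCR7 stood at -1.09 (adjusted p 0.189), LTA at -0.95 (adjusted p 0.347) and EBI3 at -0.88 (adjusted p 0.218), and none was called. NFKB2, RELB and NFKB1 were at -0.58, -0.38 and -0.24 and also missed the threshold. ICAM1, NFKBIE, another inhibitor gene, and TNF were at 0.06, 0.03 and 0.01. The probe set that the platform annotates to MIR146A, the locus of a microRNA that NF-kB induces and that targets its upstream adaptors, fell by 1.27 ± 0.14 (adjusted p 4.5e-05). Its intensity was 459.3 to 682.8 at 12 h (median 592.5) and 192.6 to 273 at 24 h (median 232.9), with no overlap. An expression array of this kind reads the longer RNA of the locus, so the mature strand was not measured.

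The promoters of NFKBIA and TNFAIP3 and of MIR3142HG, the annotated host gene of miR-146a, are shown because RNAs of these loci had the smallest p in this group. Matches to the NF-kB binding-site consensus are in capitals. The windows, 250 bases before the start, lie at chr14:35404750-35404999 (minus strand), chr6:137867009-137867258 (plus strand) and chr5:160468001-160468250 (plus strand). The match starts 81 bases before the start of NFKBIA and 120 before that of MIR3142HG, and TNFAIP3 holds 2, at 67 and 55 bases.
NFKBIA promoter: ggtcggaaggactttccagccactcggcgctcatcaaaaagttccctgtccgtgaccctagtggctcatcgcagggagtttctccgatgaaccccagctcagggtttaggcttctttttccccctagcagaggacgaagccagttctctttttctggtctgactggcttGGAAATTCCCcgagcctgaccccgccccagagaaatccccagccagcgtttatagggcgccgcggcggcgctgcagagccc
TNFAIP3 promoter: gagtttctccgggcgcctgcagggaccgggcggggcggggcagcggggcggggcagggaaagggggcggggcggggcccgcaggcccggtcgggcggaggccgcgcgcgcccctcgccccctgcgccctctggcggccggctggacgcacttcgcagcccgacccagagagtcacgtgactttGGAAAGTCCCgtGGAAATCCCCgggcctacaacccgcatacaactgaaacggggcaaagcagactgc
MIR3142HG promoter: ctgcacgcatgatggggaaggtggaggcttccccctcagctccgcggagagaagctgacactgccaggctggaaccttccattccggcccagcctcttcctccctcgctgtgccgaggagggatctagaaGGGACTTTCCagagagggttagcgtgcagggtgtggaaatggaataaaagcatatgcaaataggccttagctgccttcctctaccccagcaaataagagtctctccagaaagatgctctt
hsa-miR-146a-5p: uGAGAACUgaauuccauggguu
The last line is the mature strand from that locus (chr5:160485372-160485393), with its seed in capitals. The consensus, on either strand, was found in 6 of 15 promoters of measured list members (40%) and in 9.96% of all windows. Among list members that fell and had a promoter in the table it was found in 3 of 4 (75%). It was not particular to genes that fell: 5 of 16 promoters of G1/S members that rose held it (31.2%), those of PCNA and UHRF1 among them. Over measured members it was in 5 of 31 G1/S promoters (16.1%) and 1 of 26 G2/M promoters (3.85%).

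**Figure D3:**
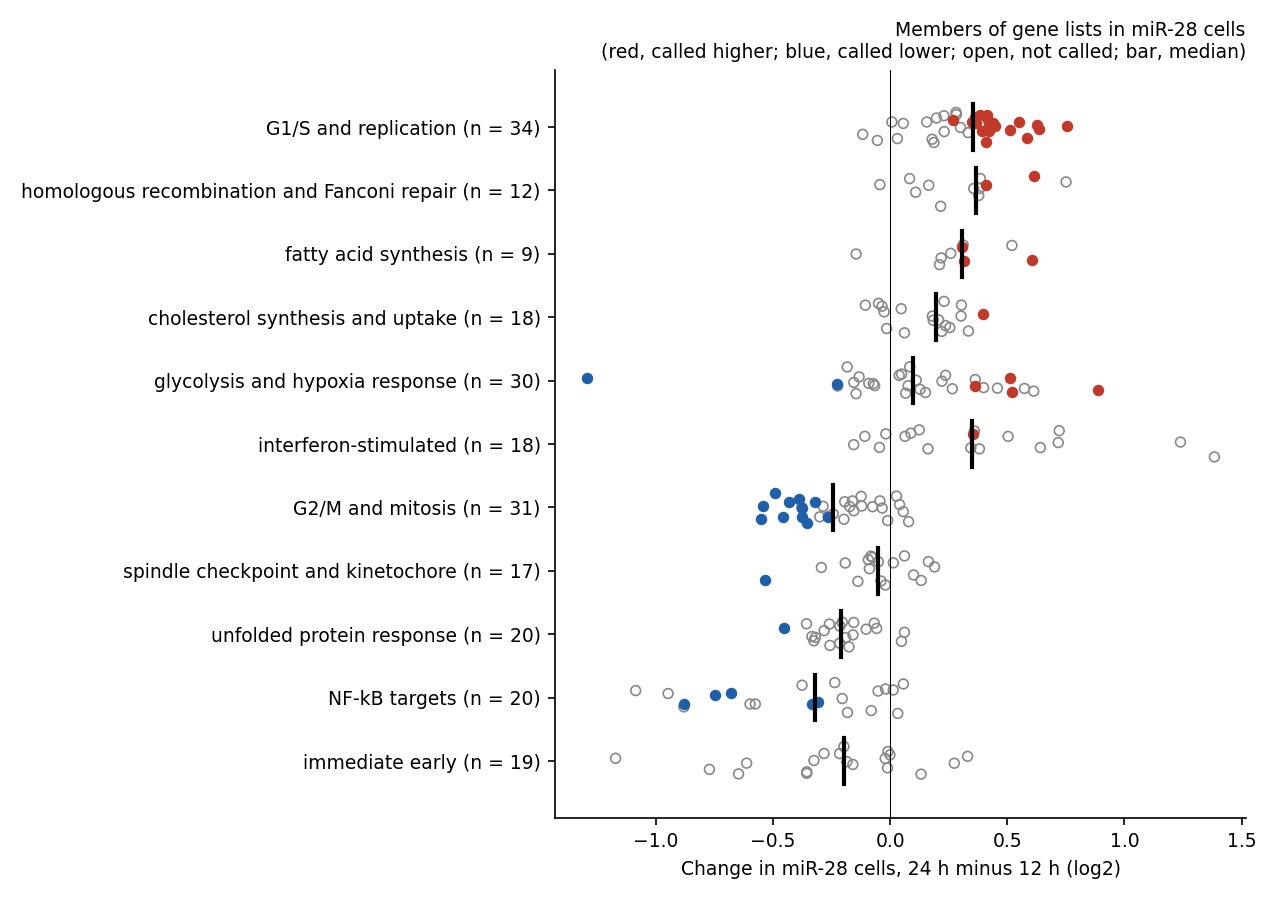
Change of each measured member of 11 gene lists between 12 h and 24 h in miR-28 cells (x axis, log2), with genes called higher in red, called lower in blue, genes not called as open circles and the list median as a black bar. The medians are 0.36 for G1/S and replication, -0.24 for G2/M and mitosis and -0.32 for NF-kB targets.

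Genes linked to growth arrest also fell, 4 of 13 measured, and none rose. BTG1, an antiproliferative gene, was 13330 to 15470 at 12 h (median 13950) and 8590 to 11580 at 24 h (median 10100), and fell by 0.48 ± 0.07 (adjusted p 0.000839). FOXO3 and FOXO1, forkhead factors that act under PI3K signalling, fell by 0.48 ± 0.09 (adjusted p 0.00443) and by 0.38 ± 0.11 (adjusted p 0.0406). TXNIP, a thioredoxin-binding protein that restrains glucose uptake, fell by 0.44 ± 0.09 (adjusted p 0.00805), and its 2 other probe sets gave -0.69 and -0.53. None of the 4 genes had overlapping groups. The median of the list was -0.10, and CDKN1B (-0.12) and CCNG2 (-0.07) were not called. After median centring the list had 2 members called lower and 1 called higher and a median of -0.0049, and neither FOXO3 (adjusted p 0.0596) nor FOXO1 (adjusted p 0.197) passed.

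In the unfolded protein response list, 18 of 20 members were below 0 (median -0.21), yet 1 was called (5%, against 4.66% of all genes). This was MANF, a secreted factor of the endoplasmic reticulum. It was 4493 to 5781 at 12 h (median 4998) and 3207 to 4403 at 24 h (median 3657), a fall by 0.45 ± 0.08 (adjusted p 0.0027). DDIT3, the stress factor CHOP, of the list on the ATF4 response, fell by 0.54 ± 0.10 (adjusted p 0.00383), while PSAT1 and PHGDH, enzymes of serine synthesis on the same list, rose by 0.45 ± 0.09 (adjusted p 0.00396) and 0.33 ± 0.09 (adjusted p 0.0434). The other 24 of its 27 measured members were not called (11.1% called, against 4.66% of all genes), and the median was 0.03. In the heat shock list DNAJA1, a co-chaperone, fell by 0.34 ± 0.06 (adjusted p 0.00312). It was the 1 call of 12 measured (8.33%), and none was called after median centring. No replication-dependent histone gene was called, although all 7 measured were below 0 (median -0.48). No immediate early gene was called either, of 19 measured (median -0.20), with NR4A1 at -1.17 (adjusted p 0.0724) and EGR3 at -0.61 (adjusted p 0.0679). All 20 cytosolic ribosomal protein genes were below 0 (median -0.12) with none called, and their median was -0.02 after median centring and 0.01 after quantile normalization, so their direction depends on the scaling.

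Metabolic genes moved in both directions. Of 30 measured genes of glycolysis and the hypoxia response, 4 rose and 2 fell (20% called, against 4.66% of all genes), with a median of 0.10. PDK1, the kinase that keeps pyruvate out of the mitochondrial citrate cycle, was 733.8 to 1096 at 12 h (median 930) and 1565 to 2001 at 24 h (median 1684). The groups were apart, with a rise of 0.89 ± 0.14 (adjusted p 0.000995); its dimmer probe sets gave 0.22 and 0.26. The phosphofructokinase genes PFKP and PFKM rose by 0.51 ± 0.10 (adjusted p 0.00468) and 0.36 (adjusted p 0.0112), and BNIP3, a mitophagy receptor, rose by 0.52 ± 0.09 (adjusted p 0.00202). ALDOC, the brain-type aldolase, was 3023 to 4497 at 12 h (median 3678) and 1258 to 1828 at 24 h (median 1425). That fall, by 1.30 ± 0.15 (adjusted p 6.75e-05), was among the largest of any gene and left the groups far apart. PGK1 fell by 0.23 (adjusted p 0.0434), and ENO1, LDHA, GPI and PKM were at -0.15, -0.07, -0.07 and 0.11 without a call. After median centring 6 members were called higher and 1 lower.

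Of 9 measured genes of fatty acid synthesis 3 rose and none fell (median 0.31). ACLY, which makes cytosolic acetyl-CoA from citrate, was 7158 to 8609 at 12 h (median 7941) and 9233 to 10610 at 24 h (median 9870), with the groups apart and a rise of 0.31 ± 0.06 (adjusted p 0.00251). ACACA, the carboxylase of the next step, rose by 0.31 ± 0.08 (adjusted p 0.0299), also without overlap. FASN, the synthase itself, was 694.4 to 1465 at 12 h (median 897.2) and 1086 to 1744 at 24 h (median 1539), and rose by 0.61 ± 0.14 (adjusted p 0.0167). Its highest array at 12 h, population A induction 1, lay within the 24 h range. Among 18 measured genes of cholesterol synthesis and uptake 1 was called (5.56%, against 4.66% of all genes), with a list median of 0.20. This was LSS, lanosterol synthase, which rose by 0.40 ± 0.11 (adjusted p 0.0408). After median centring 5 genes of fatty acid synthesis and 4 of cholesterol synthesis were called higher. PCCB, a subunit of propionyl-CoA carboxylase, was outside the lists and rose by 0.58 ± 0.08 (adjusted p 0.000131). It was 1932 to 2227 at 12 h (median 2004) and 2704 to 3437 at 24 h (median 3007).

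Outside these lists, RAB8B, a small GTPase of vesicle traffic, showed the fall with the smallest p together with SMIM19 and MIR146A. RAB8B was 2321 to 2958 at 12 h (median 2599) and 1219 to 1674 at 24 h (median 1462). The groups were apart, and RAB8B fell by 0.84 ± 0.09 (adjusted p 4.5e-05), with other probe sets at -0.31 and -0.74. SMIM19, a small membrane protein, was 4746 to 6051 at 12 h (median 5098) and 3323 to 3946 at 24 h (median 3490), a fall by 0.56 ± 0.06 (adjusted p 4.5e-05). SRPRB, a subunit of the receptor that docks ribosomes to the endoplasmic reticulum, fell by 0.55 ± 0.07 (adjusted p 0.000129). ID2, an inhibitor of helix-loop-helix factors, fell by 0.91 ± 0.23 (adjusted p 0.0239), with overlapping groups. The probe set annotated to the ribosomal RNA precursor gene RNA45SN5 was 1123 to 1821 at 12 h (median 1362) and 311.1 to 808.7 at 24 h (median 544.1). It fell by 1.36 ± 0.19 (adjusted p 0.000305), its groups did not overlap, and a second probe set gave -1.80 ± 0.29. Ribosomal RNA genes are near-identical copies, so the copy measured is uncertain.

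Among the rises outside the lists, DNAJC12, a J-domain co-chaperone of aromatic amino acid hydroxylases, was 2695 to 3541 at 12 h (median 3265) and 4755 to 5757 at 24 h (median 5380). It rose by 0.73 ± 0.09 (adjusted p 0.000126) with groups apart, and its other probe sets gave 0.44 and 0.15. UBE2L6, the conjugating enzyme for ISG15, was 1993 to 2690 at 12 h (median 2461) and 3398 to 4332 at 24 h (median 3543), a rise of 0.64 ± 0.08 (adjusted p 0.000126). EIF4EBP1, which restrains cap-dependent translation, rose by 0.70 ± 0.10 (adjusted p 0.000272), and XPNPEP1, an aminopeptidase, by 0.48 ± 0.06 (adjusted p 0.000129). None of these groups overlapped. PARVB, an actin-binding adaptor of integrins, rose by 0.89 ± 0.18 (adjusted p 0.00536), with overlapping groups. All 4 of its other probe sets were above 0, from 0.54 to 1.38. Further genes were among the 12 largest rises of genes with a mean of at least 8, with adjusted p from 0.00202 (KDM1B) to 0.0435 (SPIDR). HMGN5 (0.82 ± 0.19), KDM1B (0.79 ± 0.14) and RALB (0.76 ± 0.16) had groups apart. The groups overlapped for KIFC2 (1.00 ± 0.22), SLC4A7 (0.97 ± 0.24), GMDS (0.85 ± 0.16), SPIDR (0.77 ± 0.22) and TCEAL1 (0.76 ± 0.19). Other probe sets of SLC4A7 gave 0.17 and 0.30, and the SPIDR call held in 17 of 38 alternative settings.

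The largest values of all belonged to dim genes. CLSTN3 was 17.89 to 107.2 at 12 h (median 29.66) and 114.6 to 227 at 24 h (median 151.1), a difference of 1.96 on the log2 scale. EXO5 was 9.261 to 126.4 at 12 h and 53.52 to 181.3 at 24 h, a difference of 1.78. In both the high array at 12 h was population A induction 1. In control cells the means of CLSTN3 were 144.5 at 12 h and 122.3 at 24 h, and those of EXO5 were 114.7 and 105.1. The means of miR-28 cells, 41.39 and 34.85 at 12 h and 160.6 and 107.8 at 24 h, were thus far below those of control cells at 12 h and near them at 24 h. PFKFB4, CAPG and ALDH1B1 rose by 1.23, 1.15 and 1.06, and TRBC1, a T-cell gene, fell by 1.07 from a median of 247.3. PARD3B stood at 1.16 and KIR2DS1, an NK-cell gene, at -1.37. In CLSTN3, EXO5 and PARD3B the mean at 12 h (5.41, 4.97 and 6.01 in log2), and in KIR2DS1 that at 24 h (5.46), lay below the filter of 6.108, so these 4 passed it only through the groups where they were higher, and the size of their differences is uncertain. In all, 21 of the 530 called genes had a mean below 8 on the log2 scale. Among 66 called genes that the text or the lists give and that had another probe set above the filter, all other probe sets kept the sign for 51. The second probe set did not follow for DESI1 (0.75 against -0.02), APEH (0.70 against -0.30) or HMGN5 (0.82 against -0.35), and the others of SDCCAG8 (-0.69) gave -0.06, 0.44 and 0.33.

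Of 28 measured genes of B-cell receptor signalling 3 were called (10.7%, against 4.66% of all genes). PRKCB, a kinase that links the receptor to NF-kB, rose by 0.79 ± 0.18 (adjusted p 0.0123). The inhibitory co-receptor gene CD22 rose by 0.43 ± 0.11 (adjusted p 0.0235), and this call held in 27 of 38 alternative settings. Both genes had overlapping groups. PRKCB rose by 1.125 in population A and 0.46 in B, and CD22 by 0.22 in A and 0.64 in B. CD79B, a signalling chain of the receptor, was 10380 to 12550 at 12 h (median 11500) and 7914 to 9987 at 24 h (median 9475), a fall by 0.31 ± 0.07 (adjusted p 0.0167). The median of the list was 0.08. After median centring 3 members were called higher and CD79B no longer passed (adjusted p 0.0976). MEF2C was the 1 of 22 germinal centre genes that was called (4.55%, against 4.66% of all genes). It stood at -0.23, with other probe sets at 0.01 and 0.05, and was not called after median centring (adjusted p 0.346). None of 15 MHC class II genes and none of 9 plasma cell genes was called, but 2 class II genes were called higher after median centring. PSMB9, an immunoproteasome subunit, was the 1 call among 16 class I and peptide loading genes (6.25%, against 4.66% of all genes). It rose by 0.48 ± 0.10 (adjusted p 0.00892). Of 15 measured pro-apoptotic genes 2 rose and 1 fell (20% called, against 4.66% of all genes), with a list median of -0.01. BIK and BID rose, by 0.56 ± 0.10 (adjusted p 0.00247) and 0.36 ± 0.07 (adjusted p 0.0071). FAS fell by 0.27 ± 0.07 (adjusted p 0.0256, and 0.319 after median centring). BID and FAS each had a probe set near 0 or of the other sign, at -0.10 and 0.01. None of 11 anti-apoptotic genes was called.

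The 4 published targets of miR-28 in B-cell lymphoma did not pass the test of change with time. MAD2L1, a spindle checkpoint protein, stood at 0.13 ± 0.15, BAG1, a co-chaperone, at -0.08 ± 0.07, RAB23 at 0.43 ± 0.22 and RAP1B, a small GTPase of adhesion, at -0.23 ± 0.07 (adjusted p 0.0636). RAP1B was 12490 to 14680 at 12 h (median 13560) and 10520 to 12810 at 24 h (median 11310), so its groups overlapped slightly; with quantile normalization it was called lower. In control cells MAD2L1 stood at 0.30, BAG1 at 0.20, RAB23 at 0.10 and RAP1B at 0.11. Of these 4 differences 2 had an unadjusted limma p under 0.05, for RAP1B (0.00242) and BAG1 (0.00842), and none passed adjustment. Mean intensities at 12 h were 3888 in miR-28 and 5057 in control cells for MAD2L1, and 13540 and 15880 for RAP1B. For BAG1 they were 3366 and 3665, and for RAB23 252.7 and 365.5. A change with time cannot show a difference that was present at 12 h. These targets were reported in part from work on this cell system and are not an independent list. The host gene LPP was at 0.16 ± 0.12 in miR-28 cells (adjusted p 0.522). Of 13 measured genes of microRNA processing and silencing 1 was called (7.69%, against 4.66% of all genes). This was DICER1, which cuts precursors into mature strands and rose by 0.37 ± 0.11 (adjusted p 0.0448). The call was lost with quantile normalization and held in 12 of 38 alternative settings. DICER1 was 3101 to 4483 at 12 h (median 4151) and 4320 to 6340 at 24 h (median 5160). Its 3 other probe sets were above 0, at 0.08 to 0.34.

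Tested alone with 3 against 3 arrays in a model of 8 groups, population A gave 31 calls (0.272%), 13 higher and 18 lower, and population B gave 82 (0.721%), 53 higher and 29 lower. In both populations 14 genes passed. No gene passed the test of a difference between the populations, and 469 had an unadjusted p under 0.05. Across all genes the changes in A and B had a Pearson r of 0.201, and 0.476 over the 8142 genes with a mean of at least 8, a description across genes that are not independent. CCNE1 rose by 0.44 in A and 1.08 in B (unadjusted p of the difference 0.0052, adjusted 1), and NFKBIA fell by 1.06 in A and 0.70 in B. RRM2 (0.55 and 0.62), DNAJC12 (0.74 and 0.72) and TNFAIP3 (-0.78 and -0.72) were nearly equal in both.

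Some lists had unlike medians in the 2 populations. The median of 18 measured interferon-stimulated genes was 0.02 in A and 0.53 in B, and that of the 7 histone genes was -0.16 in A and -0.78 in B; these differences were not tested. IFI44L, a dim antiviral gene, was at 0.36 in A and 2.12 in B, and IFI27 was at -0.08 and 1.52, but neither the change with time nor the difference was called (adjusted p of the change 0.387 and 0.55, of the difference 1 for both). EIF2AK2, the kinase PKR that senses double-stranded RNA, was the 1 interferon-stimulated gene called (5.56% of the list, against 4.66% of all genes). It rose by 0.35 ± 0.10 (adjusted p 0.0408). Its arrays of population A were already at 1617 to 1869 at 12 h, against 1339 to 1390 in population B, and at 24 h all 6 arrays lay at 1650 to 2376.

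Many of the genes called in miR-28 cells were also called in control cells over the same hours. Control cells gave 699 calls (6.14%), 410 higher (3.60%) and 289 lower (2.54%). Of the genes that rose in miR-28 cells, 152 (50.3%) also rose in control cells, and of those that fell 81 (35.5%) also fell. The shared genes were 33.3% of the calls in control cells. No gene was called in opposite directions, and 500 of the 530 (94.3%) had the same sign in control cells, against 64.8% of all genes tested. The test of the difference between the 2 changes, with 787 genes at an unadjusted p under 0.05, called none (0%).

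The lists showed where the changes lay side by side. G1/S genes had 29 members called higher in control cells against 19 in miR-28 cells, and medians of 0.55 and 0.36. For the difference, 12 of the 34 members had an unadjusted p under 0.05, against 787 of all 11380 genes. None of these members passed adjustment. CCNE1 rose by 0.95 ± 0.12 in control cells and RRM2 by 0.90 ± 0.08, where miR-28 cells gave 0.76 and 0.59. G2/M genes had a median of 0.05 in control cells, with 3 members called higher and none lower, against -0.24 with 11 lower in miR-28 cells. In that list 19 of 31 members had an unadjusted p under 0.05 for the difference, against the same 787 of 11380 genes, again with none past adjustment. AURKA stood at 0.04 ± 0.08 in control cells (difference -0.41 ± 0.11, adjusted p 0.431), and CDC20 at 0.00 ± 0.11 (difference -0.53 ± 0.15, adjusted p 0.431). NF-kB targets fell in both, with 7 of 20 called lower in control cells and a median of -0.58. NFKBIA fell there by 0.68 and TNFAIP3 by 0.88, and the MIR146A probe set fell by 1.22. ALDOC and RNA45SN5 fell by 1.22 and 1.17 in control cells and fell by 1.30 and 1.36 in miR-28 cells.

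**Figure D4:**
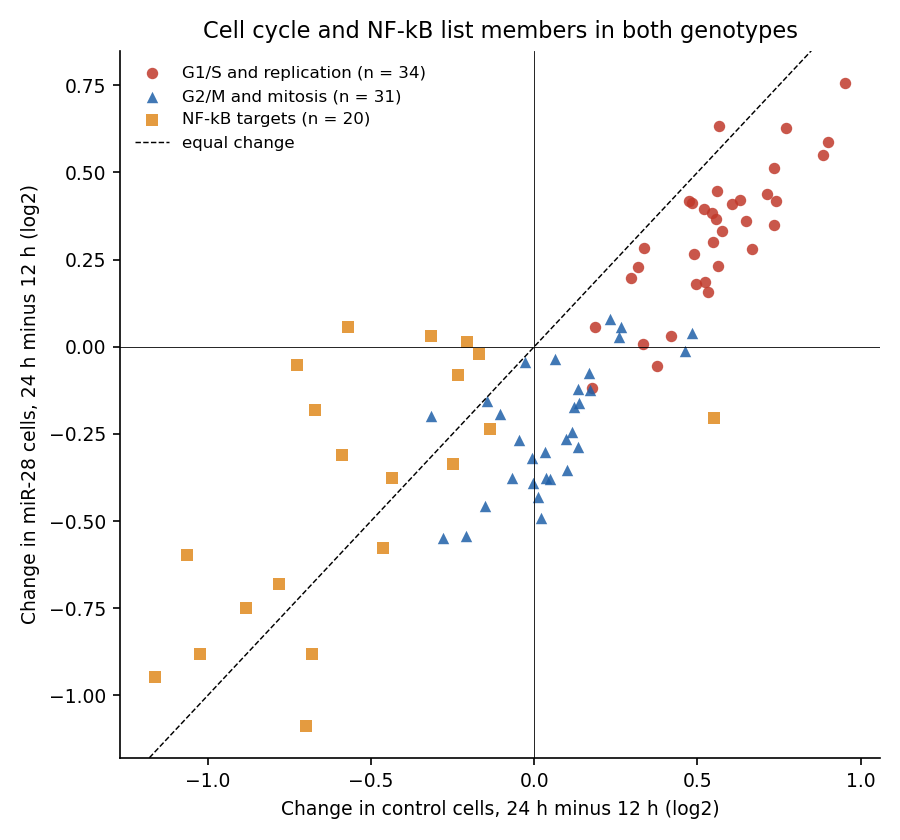
Change between 12 h and 24 h of list members in control cells (x axis) and miR-28 cells (y axis), in log2 units, with the dashed line marking equal change. G1/S members (circles) lie above 0 in nearly all cases on both axes with medians of 0.55 and 0.36, while G2/M members (triangles) have medians of 0.05 in control and -0.24 in miR-28 cells.

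The 5 smallest p for a difference from control cells, each with an adjusted p of 0.291, belonged to SMIM19, ESPL1, CLSTN3, TNKS and PARVG. SMIM19 fell by 0.56 in miR-28 cells and stood at -0.10 in control cells, a difference of -0.46 ± 0.09. ESPL1, the separase that cuts cohesin, was at -0.26 and 0.32, a difference of -0.58 ± 0.12. PARVG, a parvin of blood cells, was at 0.47 and -0.36, and TNKS, a poly-ADP-ribose polymerase, at -0.28 and -0.76. Without array A1 of miR-28 cells at 12 h, CLSTN3 passed the limma test of the difference (2.46, adjusted p 0.0268). That array held its highest value at 12 h (107.2). CLSTN3 also passed the filter only through the groups where it was higher, so this pass cannot count as support for a difference. DICER1 was at -0.17 in control cells (difference 0.54 ± 0.15, adjusted p 0.431), and RAB8B fell there by 0.38 (difference -0.46 ± 0.13, adjusted p 0.431). A difference that missed the threshold does not show that both kinds of cells changed alike.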

How the data were processed

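RNA of P3HR1 cells was measured on 24 Affymetrix arrays, from 6 ug of total RNA each, per the labels' protocols. The authors deposited linear probe-set intensities made with MAS5, per the submitters' processing notes; its version and settings are not given in the sources used here. Every column had a 2% trimmed mean of 500.07 to 500.08, and this scaling was kept. Precision is limited by the number of arrays, since there are no reads to count. The table held 54675 probe sets. The 62 control probe sets and those with several gene symbols (1801) or none listed (11721) were left out, and symbols came from the platform annotation, updated through RefSeq.

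Values were analysed as log2(intensity + 8). The brightest probe set on average stood for its gene, and 11380 of 19775 genes passed a minimum mean of 6.108, which is the median over non-control probe sets. A model of the 4 groups of genotype and time was fitted to all 24 arrays in R 4.3.3 (limma 3.58.1, statmod 1.5.0), with population as a random block (consensus correlation -0.0229). Tests were two-sided with Benjamini-Hochberg adjustment. A model with 8 groups tested populations A and B and their difference. The fit of the change with time was tested on simulated data. Promoters and microRNAs were taken from RefSeq tables (GRCh38.p14).

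The genes and the lists, 37 in all with 606 of 724 entries measured, were chosen with earlier results of these data known. Named genes were the 12 largest rises and falls among called genes with a mean of at least 8 that moved that way in both populations, the 6 largest each way of any mean, the 8 smallest p each way, up to 4 called members of each list, all published targets and the host gene, and the 5 smallest p for each difference test. Of these 97 genes, 81 were called. Alternatives covered the pseudocount (1 and 32), the filter, the scaling, the choice of probe set, the block, the arrays in the fit and each array left out in turn.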

Additional observations from a re-analysis of the deposited data

Results flagged for a closer look

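In 90 groups of 6 arrays, 6 single arrays lay far from the other 5 by Dixon's test, where chance gives about 1 in 20. At 12 h, APEH was 921.9 on array B2 (others 1206 to 1385) and ZBED5-AS1 was 1078 on the same array (others 551.5 to 688.8). At 24 h, SPIDR was 438.8 on array A3 (others 307 to 346.7), SRPRB was 2579 on array B2 (others 2841 to 2900) and TROAP was 1305 on array A2 (others 915.1 to 1044). TMEM129, which fell by 1.10 ± 0.28 (limma adjusted p 0.0283), was 56.26 on array B1 at 24 h, against 180.9 to 322.3 on the others.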

How the results depend on the processing

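Counts are given as genes higher and lower in miR-28 cells (302 and 228 as reported), then list members called: G1/S higher (19), G2/M lower (11) and NF-kB lower (5). Without the filter on low values they were 119 and 88, with 10, 5 and 3 list members, and 364 genes (not 699) in control cells. Median centring gave 529 and 57, with 2 G2/M and 3 NF-kB members, and 421 genes in control cells. The median of a gene's probe sets left 5 G2/M and 3 NF-kB members and turned SDCCAG8 to 0.15 and MEF2C to 0.014. Fitting only the miR-28 arrays gave 111 and 75, with 5, 2 and 3 members. Population A alone gave 13 and 18, with 1, 0 and 3 members, and population B alone 53 and 29, with 12, 2 and 2. With population means as the unit, limma called 0 and 0 genes and 0 members of each list (948 and 844 genes had an unadjusted p under 0.05). The cause of these moves was not tested, other than that the last 4 fits use fewer values. Of the 81 called genes that are named, 79 kept their direction in all alternatives and 62 kept their call in at least 30 of up to 38.

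Leaving out 1 array at a time gave 193 (without miR-28 12 h B1) to 322 genes higher and 150 (without miR-28 12 h A2) to 253 lower, with 196 higher without miR-28 24 h B3. It gave 11 (without miR-28 12 h B1) to 19 G1/S members, 6 to 11 G2/M members and 4 to 5 NF-kB members, and 491 to 742 genes in control cells. The difference from control cells had 0 to 1 gene called (CLSTN3, without miR-28 12 h A1), and the difference between populations 0 to 1 (FMO2, without miR-28 12 h B1). Without the filter the latter test called 1 gene, TMEM123-DT. In every such fit 138 of the genes higher and 110 of those lower kept their call.

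The induction numbers did not pair the arrays of the 2 times: deviations of same-numbered arrays had an r of -0.0856 to 0.0529, and 1 of 6 arrays correlated best with its own number. With the number as a block, 190 genes were higher and 131 lower, 295 of them shared with the 530, with 15 G1/S, 7 G2/M and 3 NF-kB members, and both difference tests called 0.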
